A study of Drosophila melanogaster with 12 samples.

Results

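The miRNAs described here come from 18 hairpins that carry late numbers in the insect registry, between mir-955 and mir-1002, and that were taken as standing alone in the fly genome. The list named mir-955, mir-956, mir-957, mir-958, mir-965, mir-966, mir-967, mir-968, mir-970, mir-971, mir-981, mir-986, mir-987, mir-988, mir-990, mir-997, mir-999 and mir-1002, and every row of the miRNA table from one of them was used, whatever its level. Of the 18 hairpins, 17 had rows in the table and mir-997 had none. They gave 33 arms of the 403 in the whole table, which covered 238 hairpins. Both arms were listed for 16 hairpins, and mir-990 was listed with its 5p arm only.

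A miRNA is cut from a hairpin transcript, first in the nucleus by Drosha and then in the cytoplasm by Dicer-1. The hairpin's arms leave as a short duplex, and one strand of it, named 5p or 3p after its arm, is kept by the Argonaute protein AGO1 while the other mostly is not. AGO1 and its miRNA then bind mRNAs through the seed at the miRNA's 5′ end and lower their translation and stability. An AGO1 immunoprecipitate therefore holds the strands that were loaded into AGO1, and strands held elsewhere are not seen in it. Within this limit, the balance of arms in it reads out strand choice together with strand survival. The late-numbered fly miRNAs were mostly found by sequencing small RNAs and comparing insect genomes. Among them, miR-965 is known to act on string and wingless in the cells that form the adult abdomen, and miR-958 is known to act on the Toll immune pathway.

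Small RNAs bound to AGO1 were sequenced from the heads of Canton-S flies, a wild-type strain, kept at 18, 25 or 29°C under cycles of light and dark. Each temperature had 4 libraries, taken at zeitgeber times (ZT) 3, 9, 15 and 21, so that each of the 12 combinations was sequenced once and the time points served as the replicates of a temperature. The libraries carried no other genotype or treatment, the heads of many flies were pooled in each, and a head holds brain, eye, fat body, muscle and other tissues. In such samples fewer cells of a type and less miRNA per cell cannot be told apart.

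The libraries held between 4423511 reads on miRNAs (29°C ZT21) and 16840372 (25°C ZT15). The deposited values, called normalised read values below, were reads divided by a size factor for each library, and a count of 0 allowed a value of up to 1.97 in the deepest library and 7.65 in the shallowest at a floor of 3 reads. These limits cover counting error only. No pair of libraries at the same temperature was a repeat of the other: even the closest, 29°C ZT3 and 29°C ZT15, had a chi-square of 236 per degree of freedom.

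The label of standing alone did not hold for 4 of the 17 hairpins in the fly genome annotation (BDGP6.54), since each of these had another hairpin within 1000 bases. The closest pair was mir-968 (2L:13747748-13747839, minus strand) and mir-1002 (2L:13747609-13747697, minus strand), which were 51 bases apart in the same exon of the long noncoding RNA lncRNA:CR45913. Next came mir-999 (3R:21798227-21798331, minus strand), with mir-4969 on the same strand at 183 bases. The last was mir-956 (3L:11773731-11773878, minus strand), which overlapped no other gene and had mir-314 on the opposite strand at 630 bases. The other 13 had no neighbour within 10000 bases.

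Of the 17 hairpins, 10 lay in an intron of a gene on their own strand. Their hosts included kis, a chromatin remodeller (mir-965, 2L:243035-243141, minus strand), bun, a TSC22-family transcription factor (mir-967, 2L:12460004-12460100, minus strand), Tomosyn, a regulator of neurotransmitter release (mir-970, X:12636336-12636430, plus strand), Prp8, a core protein of the spliceosome (mir-988, 2R:12158872-12158970, minus strand), and CASK, a scaffold of synaptic membranes (mir-999). CG8910, of which no role is given here, held mir-990 (2R:16895223-16895308, minus strand). Pfas, an enzyme of purine synthesis, held mir-966, and Cyp4e2, a cytochrome P450, held mir-986. Besides mir-956, mir-955 (3L:3299055-3299151, plus strand) and mir-957 (3L:22518196-22518291, minus strand) overlapped no other gene, while mir-981 (X:1788861-1788957, minus strand) lay opposite an intron of prage. An exon of lncRNA:CR43270 held mir-958 (3L:22669289-22669380, minus strand), and an exon of lncRNA:CR45918 held mir-987 (2R:9313023-9313116, minus strand). The last also lay in introns of CG13739 and CG13954 on its own strand and is among the 10.

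Taken as one pool, the 33 arms made up 4.56% of all miRNA reads. Their share was 3.74% ± 0.812 (SD, n = 4) at 18°C, 5.39% ± 0.473 at 25°C and 4.33% ± 0.288 at 29°C. The 18°C libraries ranged from 2.85% to 4.79% and the 25°C libraries from 4.82% to 5.91%, so these groups met but did not overlap, and the 29°C libraries (3.99% to 4.69%) lay inside the 18°C range. Most of this pool was miR-999-3p, with 71.6% of the members' reads, and the 3 most abundant arms together held 92.8%.

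The pool fell into levels far apart. There were 9 arms with a mean of at least 1000 reads per library, 14 with a mean between 10 and 1000, and 10 with a mean under 10. The median of the mean reads was 55.2 for the members and 26.3 for the whole table. It was 10.2 over the 52 arms of the 31 other hairpins numbered mir-954 to mir-1002, and 219 over the 24 arms of the 15 hairpins numbered mir-1003 to mir-1017. Arms with a mean under 10 reads made up 30.3% of the members and 42.2% of the whole table. A filter on low reads left 26 of the 33 arms for the tests of temperature. The 7 that were not tested had means of at most 6.75 reads, and they were both arms of mir-968 and of mir-1002, the paired hairpins, with miR-955-3p, miR-956-5p and miR-966-3p.

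**Figure D1:**
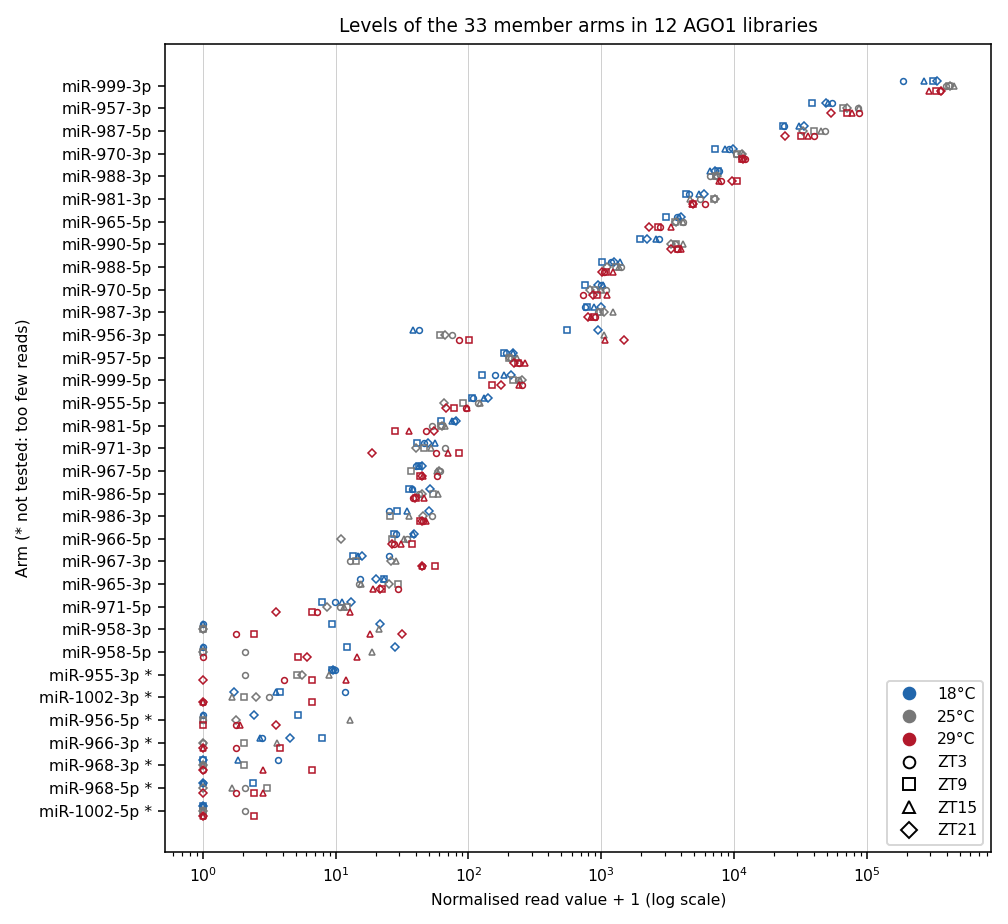
Normalised read value plus 1 on a log axis for the 33 arms, ordered by their mean; each symbol is a library, coloured by temperature and shaped by zeitgeber time, and stars mark the 7 arms that were not tested. From miR-999-3p, which reached 451555, the levels run down to miR-1002-5p at 0 in 10 libraries, and miR-956-3p falls into separate high and low libraries.

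Temperature was compared first between the extremes, 18°C and 29°C. In this comparison miR-967-3p, miR-990-5p, miR-970-3p and miR-957-3p were lower at 18°C, and miR-981-5p and miR-965-5p were higher. These were the members with an adjusted p under 0.05 in limma, a linear model fitted to log2(value + 1) of all 244 tested miRNAs with Benjamini-Hochberg adjustment. So 6 of 26 members passed, 4 of them lower and 2 higher, where 39.8% of all tested miRNAs passed, 46 of them lower and 51 higher. With a log2 fold change over 1 also required, 1 member was left, miR-967-3p, against 16% of all tested miRNAs. The 6 made up 23.1% of the 26 members tested, and over all 26 the median absolute log2 fold change was 0.28, where it was 0.43 over all tested miRNAs. With each library scaled by its total miRNA reads in place of the size factor, which moved the median log2 fold change of all tested miRNAs from 0.03 to 0.13, the split was 3 higher and 3 lower, as miR-955-5p (0.0275) came under 0.05 and miR-970-3p (0.0544) went over it.

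Between 18°C and 25°C, 5 of 26 members were lower at 18°C and 0 were higher, where 19.7% of all tested miRNAs passed, 21 of them lower and 27 higher. The 5 were miR-990-5p, miR-957-3p, miR-999-3p, miR-970-3p and miR-987-5p, which include the 4 most abundant members. None of them had an absolute log2 fold change over 1, a size that 4.1% of all tested miRNAs reached at the adjusted p (0 of 26 members in limma and edgeR and 0 of the 24 with a value in DESeq2). At an unadjusted p under 0.05 there were 7 of 26 members and 83 of all 244 miRNAs. Between 29°C and 25°C, miR-967-3p was higher at 29°C and miR-965-5p was lower, which makes 2 of 26 members where 11.9% of all tested miRNAs passed, 11 of them higher and 18 lower. With time point as a replicate block in the 8 libraries of these temperatures, chosen after seeing the data, miR-987-5p also passed, lower at 29°C by a log2 difference of -0.34 (adjusted p = 0.0366). That made 3 of the 23 members tested with the block, and the share over all miRNAs in that setting is not given here. In the fit without the block, only miR-967-3p passed the fold limit between 29°C and 25°C, against 3.28% of all tested miRNAs. The 3 comparisons share libraries, so their values for a member are not independent of each other. In all, 8 arms from 8 hairpins were under the threshold in at least 1 comparison and 18 were under it in none.

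The groups of 4 libraries did not overlap for 7 of 26 members between 18°C and 29°C (38.9% of all tested miRNAs), for 5 between 18°C and 25°C (24.6%) and for 5 between 29°C and 25°C (16.8%). Members with a lower log2 mean at 18°C numbered 18 of 26 against 29°C and 19 of 26 against 25°C, while over all tested miRNAs it was 116 of 244 in each.

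**Figure D2:**
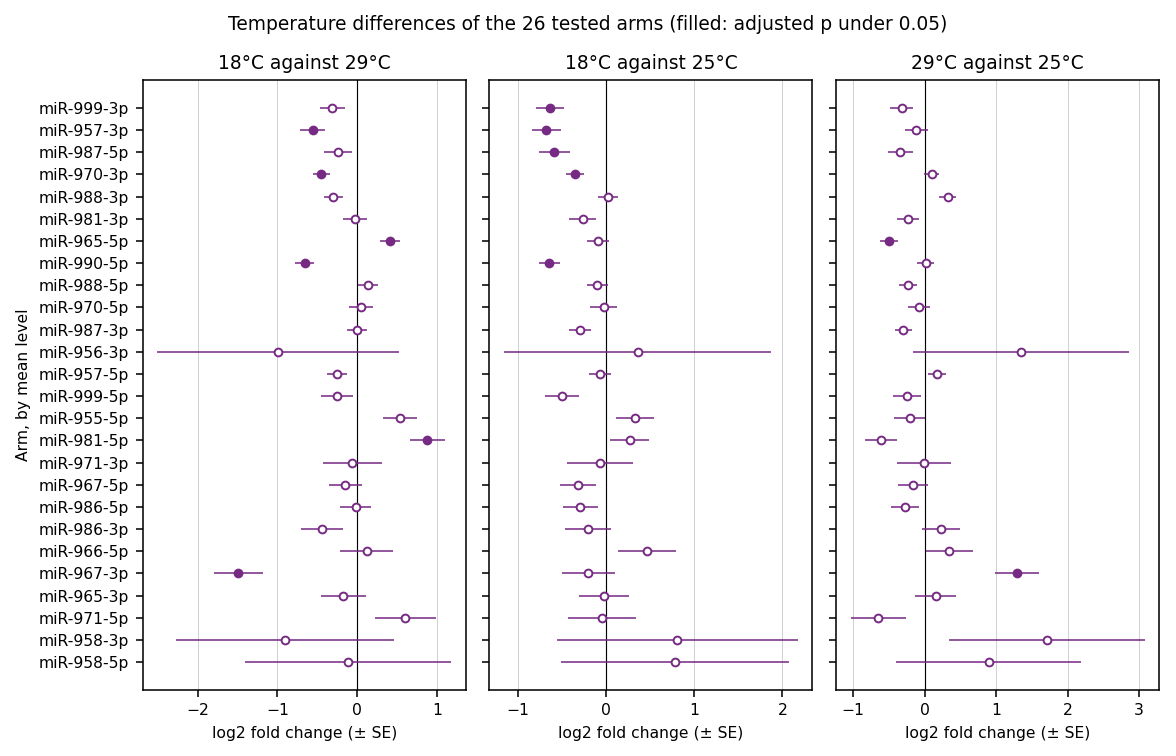
Log2 fold change with its SE (horizontal axis) for the 26 tested arms, ordered by mean level (vertical axis), in the 3 comparisons; filled points have an adjusted p under 0.05. Of the filled points, 4 lie left and 2 right of 0 for 18°C against 29°C, 5 lie left for 18°C against 25°C, and 1 lies on each side for 29°C against 25°C, while the arms of mir-956 and mir-958 carry SEs over 1.

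The lower level at 18°C was plainest for miR-990-5p, from an intron of CG8910. Its normalised read values at ZT3, ZT9, ZT15 and ZT21 were 2735, 1949, 2598 and 2219 at 18°C, 3598, 3664, 4116 and 3360 at 25°C, and 3710, 3783, 4019 and 3362 at 29°C. All 4 libraries at 18°C were below all 8 of the others, and the 25°C and 29°C libraries ran over the same range. The log2 difference was -0.66 (SE 0.120) from 29°C (adjusted p = 0.000711) and -0.64 (SE 0.120) from 25°C (adjusted p = 0.00272), while that of 29°C from 25°C was 0.01 (adjusted p = 0.968).

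For miR-999-3p, the most abundant member, the values were 188265, 316810, 268544 and 337008 at 18°C in the order of ZT. At 25°C they were 397458, 417680, 451555 and 420187, and at 29°C they were 359345, 332162, 296381 and 365073. The 25°C libraries were above all others, and the 18°C and 29°C libraries overlapped. The mean fell from 421720 ± 22342 (SD, n = 4) at 25°C to 277657 ± 66155 at 18°C (log2 difference -0.64, SE 0.156, adjusted p = 0.0126). The differences of 18°C from 29°C (-0.31, adjusted p = 0.126) and of 29°C from 25°C (-0.32, adjusted p = 0.231) did not pass. The difference from 29°C was -0.42 (adjusted p = 0.0476) without the 18°C ZT21 library and -0.14 (adjusted p = 0.401) without the 18°C ZT3 library. Of all miRNA reads it took 2.70%, on average, in the 18°C libraries, 3.95% in the 25°C libraries and 3.04% in the 29°C libraries. Its neighbouring hairpin mir-4969 was not among the members.

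A similar order was seen in miR-957-3p, which overlapped no gene in the annotation. The values at 18°C were 54991, 38848, 51442 and 49082, those at 25°C were 86004, 66527, 86678 and 70491, and those at 29°C were 87377, 70623, 76816 and 53767. All 18°C libraries were below all 25°C libraries, and the 29°C ZT21 library reached down to the 18°C range. The log2 difference of 18°C was -0.67 (SE 0.159) from 25°C (adjusted p = 0.0112) and -0.56 (SE 0.159) from 29°C (adjusted p = 0.0119).

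The 5p arm of mir-987, a hairpin in a noncoding exon, had values of 23841, 23315, 30822 and 33896 at 18°C, 48624, 40170, 44965 and 33312 at 25°C, and 40249, 31993, 36288 and 24408 at 29°C. The 18°C ZT21 library lay just above the 25°C ZT21 library, so that the groups overlapped. The log2 difference of 18°C from 25°C was -0.58 (SE 0.176, adjusted p = 0.0294) and that from 29°C was -0.24 (adjusted p = 0.294). The adjusted p of the first rose over 0.05 without 18°C ZT3 (0.0851), 18°C ZT9 (0.0825), 25°C ZT3 (0.0971), 25°C ZT9 (0.0519) or 25°C ZT15 (0.0872), and also without the trend and robust options of the fit (0.0548).

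From the intron of Tomosyn, miR-970-3p had values of 9093, 7193, 8523 and 9873 at 18°C, 10307, 10464, 11699 and 11524 at 25°C, and 12111, 11559, 11734 and 11740 at 29°C. Again all 18°C libraries were below the other 8, and the 29°C libraries differed little among themselves. The log2 difference of 18°C was -0.45 (SE 0.105) from 29°C (adjusted p = 0.00323) and -0.35 (SE 0.105) from 25°C (adjusted p = 0.0294). The second was over 0.05 without 18°C ZT9 (0.094), 18°C ZT15 (0.0691), 25°C ZT15 (0.0955) or 25°C ZT21 (0.0629), with no filter on low reads (0.0634) and with scaling by total reads (0.153).

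The abundant arm of the hairpin in kis, miR-965-5p, was lower at 29°C than at either other temperature. Its values were 3716, 3087, 3860 and 3980 at 18°C, 4136, 3602, 4121 and 3655 at 25°C, and 2753, 2698, 3351 and 2275 at 29°C. The 29°C libraries were below all 25°C libraries and, but for ZT15, below all 18°C libraries. The log2 difference of 18°C from 29°C was 0.41 (SE 0.127, adjusted p = 0.0187), and that of 29°C from 25°C was -0.50 (SE 0.127, adjusted p = 0.0194), while that of 18°C from 25°C was -0.09 (adjusted p = 0.675). The 18°C against 29°C result was over 0.05 without 18°C ZT15 (0.0506) or 18°C ZT21 (0.0533), and the 29°C against 25°C result without 25°C ZT3 (0.0622), 25°C ZT15 (0.0535) or 29°C ZT9 (0.0606).

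The scarce 5p arm of mir-981 was likewise higher at 18°C than at 29°C. Its values were 76.8, 61.1, 73.9 and 80.2 at 18°C, 51.9, 61.3, 65.6 and 62.3 at 25°C, and 47.2, 26.8, 34.4 and 53.6 at 29°C. The 18°C libraries were all above the 29°C libraries, and the 25°C libraries lay between them with some overlap on both sides. The log2 difference of 18°C from 29°C was 0.88 (SE 0.221, adjusted p = 0.0056). Without the shallow 29°C ZT21 library, where it had 21 reads, this difference was 1.02 and the count of members past both limits was 2 in place of 1. The abundant arm, miR-981-3p, had values of 4560, 4364, 5438 and 5980 at 18°C, 5594, 7121, 4684 and 7231 at 25°C, and 6052, 4882, 4849 and 4923 at 29°C. The ranges overlapped, and its 18°C against 29°C log2 difference of -0.03 did not pass (adjusted p = 0.922).

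The largest difference of the 8 was in miR-967-3p, from the intron of bun, which is also the scarcest of them. Its values were 24.1, 12.5, 13.6 and 14.9 at 18°C, 11.9, 13.3, 27.6 and 25.07 at 25°C, and 43.3, 55.0, 43.5 and 43.4 at 29°C. All 4 libraries at 29°C were above the other 8. Behind these values stood 9 to 56 reads per library. The log2 difference of 18°C was -1.49 (SE 0.304) from 29°C (adjusted p = 0.00135), and that of 29°C from 25°C was 1.29 (SE 0.304, adjusted p = 0.0128). Both kept an adjusted p under 0.05 without each library in turn. The 5p arm of the same hairpin had values of 39.3, 41.7, 41.6 and 44.0 at 18°C, 60.5, 35.7, 57.1 and 59.3 at 25°C, and 56.5, 42.3, 44.4 and 43.4 at 29°C. Its log2 difference of 18°C from 29°C was -0.15 (SE 0.206) and did not pass (adjusted p = 0.610).

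**Figure D3:**
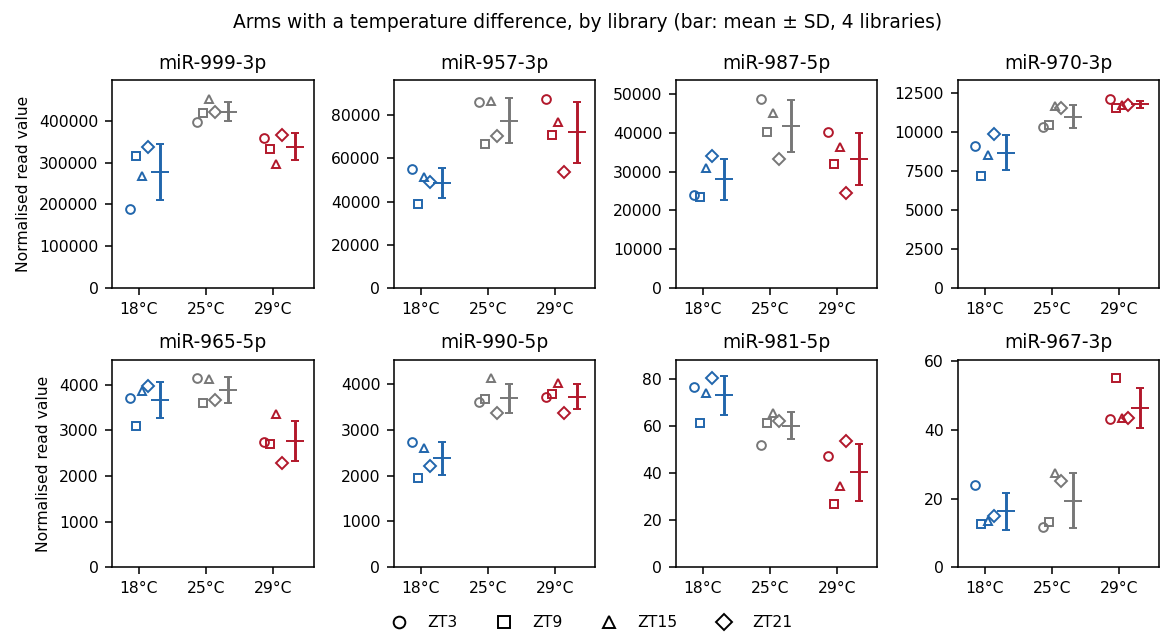
Normalised read value (vertical axis, from 0) of the 8 arms with an adjusted p under 0.05 in at least 1 comparison, by temperature; symbols are libraries by zeitgeber time and bars give the mean ± SD of 4 libraries. The 18°C libraries sit below all others for miR-990-5p and miR-970-3p, and the 29°C libraries sit above all others for miR-967-3p.

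Other members stayed nearer to their spread. For miR-988-3p, from the intron of Prp8, the values were 7665, 7551, 6624 and 7214 at 18°C, 6556, 7260, 7286 and 7499 at 25°C, and 7921, 10621, 7724 and 9734 at 29°C. The 29°C libraries were above all others, but the log2 difference of 18°C from 29°C of -0.30 (SE 0.115) had an adjusted p of 0.0531, and that of 29°C from 25°C was 0.32 (adjusted p = 0.0855). The first came under 0.05 without 29°C ZT3 (0.0399) or 29°C ZT15 (0.0251), with a minimum mean of 100 reads (0.049) and with DESeq2 (0.0395), and the second without 29°C ZT15 (0.0476). In miR-955-5p the 18°C libraries (106 to 138) were above the 29°C libraries (66.3 to 96.9), with a log2 difference of 0.53 (SE 0.216, adjusted p = 0.0646). It came under 0.05 with scaling by total reads (0.0275), with only the 8 libraries compared (0.0485) and without 25°C ZT21 (0.0319). The difference of miR-981-5p between 29°C and 25°C came under it without 29°C ZT21 (0.0347), and without 18°C ZT21 so did those of miR-987-3p (0.0487) and miR-999-5p (0.0492) between 18°C and 25°C. Apart from the arms of mir-956 and mir-958, none of the 18 members outside the 8 reached an absolute log2 difference over 0.65.

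The arms were compared within each hairpin as log2 of 5p reads over 3p reads, with 0.5 added to each, a quantity that does not depend on how libraries are scaled. The 3p arm was the more abundant in 10 of the 16 hairpins and the 5p arm in 6. In 10 hairpins over 90% of the reads came from 1 arm, and in 5 of these over 98% did. The most one-sided were mir-999 (99.9% from 3p), mir-957 (99.7% from 3p), mir-956 (99.5% from 3p), mir-965 (99.4% from 5p) and mir-981 (98.9% from 3p). The arms were nearer to even in mir-986 (53.0% from 5p), mir-958 (51.3% from 3p) and mir-967 (64.8% from 5p), and in mir-968 (55% from 3p), where only 20 reads were counted in all.

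Arm ratios were tested in hairpins whose arms each averaged 10 reads or more, 9 of them members. Of these, 3 differed in arm ratio between 18°C and 29°C (limma over 89 hairpins, adjusted p under 0.05), where 56.2% of all tested hairpins did. Between 18°C and 25°C 1 differed (24.7% of all tested), and between 29°C and 25°C 1 differed (16.9% of all tested). With time point as a replicate block over all 12 libraries this last count was 2, with mir-988 added (adjusted p = 0.0405), and with the block in the 8 libraries compared it was 1. The shares over all tested hairpins with the block are not given here. The counts with the block therefore cannot be set beside the 16.9% or read as results about the members. The 3 were mir-967, mir-981 and mir-970, each with relatively more of its 5p arm at 18°C. The other was mir-957 for 18°C against 25°C, again with more of the 5p arm at 18°C. For all 9 hairpins but mir-987 the mean ratio was higher at 18°C than at 29°C. The direction over all 89 tested hairpins is not given here, so this direction cannot be called particular to the members.

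In mir-967 the lead of the 5p arm was lost at 29°C. Its log2 ratio was 0.69, 1.68, 1.58 and 1.54 at 18°C in the order of ZT, 2.30, 1.39, 1.04 and 1.23 at 25°C, and 0.38, -0.37, 0.03 and 0.00 at 29°C. The 5p arm thus led in all 8 cooler libraries, and at 29°C the arms were about even. The difference of 18°C from 29°C was 1.37 (SE 0.285, adjusted p = 0.00128), and that of 29°C from 25°C was -1.48 (SE 0.285, adjusted p = 0.00381). It followed the values above, in which miR-967-3p was higher at 29°C and the difference of miR-967-5p did not pass.

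In mir-981 the log2 ratio was -5.88, -6.14, -6.19 and -6.21 at 18°C, -6.74, -6.85, -6.15 and -6.85 at 25°C, and -6.99, -7.47, -7.12 and -6.49 at 29°C. All 18°C libraries were above all 29°C libraries, and the difference was 0.91 (SE 0.212, adjusted p = 0.00287). In mir-970 the ratio was -3.19, -3.25, -3.04 and -3.39 at 18°C and -4.07, -3.64, -3.41 and -3.76 at 29°C, again without overlap. Its scarcer arm, miR-970-5p, had overlapping values of 753 to 1038 at 18°C, 817 to 1081 at 25°C and 722 to 1103 at 29°C. The difference in ratio was 0.50 (SE 0.172, adjusted p = 0.0261), and it was over 0.05 without 18°C ZT3 (0.0566), 18°C ZT15 (0.0609) or 29°C ZT3 (0.0919).

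In mir-957 the ratio was -8.18, -7.72, -7.89 and -7.82 at 18°C and -8.70, -8.37, -8.54 and -8.43 at 25°C, also without overlap. The difference was 0.60 (SE 0.170, adjusted p = 0.0186), and it was over 0.05 without 18°C ZT9 (0.0505) or 25°C ZT3 (0.0569). Its 5p arm had values of 189, 183, 216 and 217 at 18°C, 206, 201, 232 and 204 at 25°C, and 238, 234, 266 and 219 at 29°C. The first and second groups overlapped, with a log2 difference in level of -0.07 between these temperatures (adjusted p = 0.739). The ratio of mir-999 differed least between 18°C and 29°C, by 0.06 (SE 0.253, adjusted p = 0.858).

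**Figure D4:**
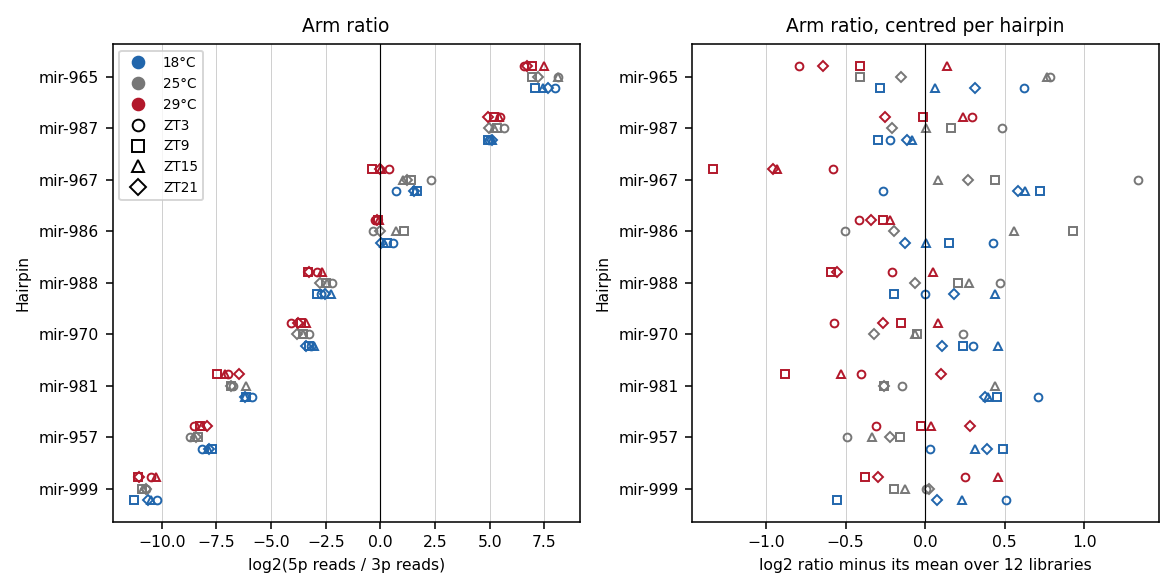
Log2 of 5p reads over 3p reads (left) and the same with each hairpin's mean over the 12 libraries taken off (right) for the 9 tested hairpins; symbols are libraries, coloured by temperature and shaped by zeitgeber time. The hairpins span from below -10 (mir-999) to above 6 (mir-965), and the 29°C libraries of mir-967 stand to the left of the other 8.

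Time of day was tested over 3 coefficients for the 4 time points, with temperature as a covariate. By limma the adjusted p was under 0.05 in 0 of 27 members. The unadjusted p was under that limit in 1 of them, miR-957-3p (adjusted p = 0.863 in limma), where 4.76% of the 252 tested miRNAs were. By edgeR 0 members passed at the adjusted p and 0 at the unadjusted p, and by DESeq2 the counts were 0 and 1. Over all 252 tested miRNAs they were 0 and 9 by edgeR and 1 and 11 by DESeq2. Without the 18°C ZT21 library 2 members passed, miR-957-3p (adjusted p = 0.0392) and miR-987-5p (adjusted p = 0.0367), as did 23 of all 255 miRNAs tested in that setting (9.02%). With 1 library for each temperature and time, a rhythm present at a single temperature could not be tested.

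A separate pattern, with high and low libraries at each temperature, was seen in mir-956. The values of miR-956-3p at ZT3, ZT9, ZT15 and ZT21 were 41.1, 556, 37.4 and 948 at 18°C, 73.5, 60.2, 1043 and 65.3 at 25°C, and 83.5, 100, 1058 and 1472 at 29°C. The libraries at 18°C ZT9, 18°C ZT21, 25°C ZT15, 29°C ZT15 and 29°C ZT21 were above 500, and the other 7 were at or below 100. By time of day they were 0 of 3 libraries at ZT3, 1 of 3 at ZT9, 2 of 3 at ZT15 and 2 of 3 at ZT21. The lowest of the 5 was 5.55 times the highest of the 7. These 5 libraries included both the deepest and the shallowest of all, with 4423511 to 16840372 reads beside 7667803 to 14424841 in the other 7. Its log2 difference of 18°C from 29°C was -0.99 with an SE of 1.51 (adjusted p = 0.664), and the test of time of day gave an adjusted p of 0.863.

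For mir-958, the hairpin of the Toll-linked miRNA, miR-958-3p was highest in the same 5 libraries, and miR-958-5p was so by listed value only. The values of miR-958-3p there were 8.34, 20.6, 20.3, 17.2 and 30.6, and in the other 7 it was at 0 in 5 and at most 1.41. For miR-958-5p they were 11.1, 27.0, 17.7, 13.6 and 5.10, and in the other 7 at most 4.23. The last of these values stands for 2 reads in the 29°C ZT21 library, under its floor of 7.65, and the 4.23 for 3 reads in 29°C ZT9, so the order of these libraries cannot be read for miR-958-5p. The arms rest on 99 and 94 reads in all. Of the 403 rows of the table, 6 had these 5 libraries as their highest by listed value. The other 3 were miR-956-5p, on 27 reads, miR-976-3p, whose lowest value among the 5 (7.65) was close to its highest among the 7 (7.15), and miR-314-3p. The last comes from the hairpin 630 bases from mir-956 on the opposite strand, and its values were 25.0, 17.8, 15.7, 19.0 and 23.0 in the 5 and at most 4.32 in the 7, on 113 reads. These rows were singled out after their values were seen, and no test was made on libraries grouped in this way. What sets the 5 libraries apart was not tested.

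**Figure D5:**
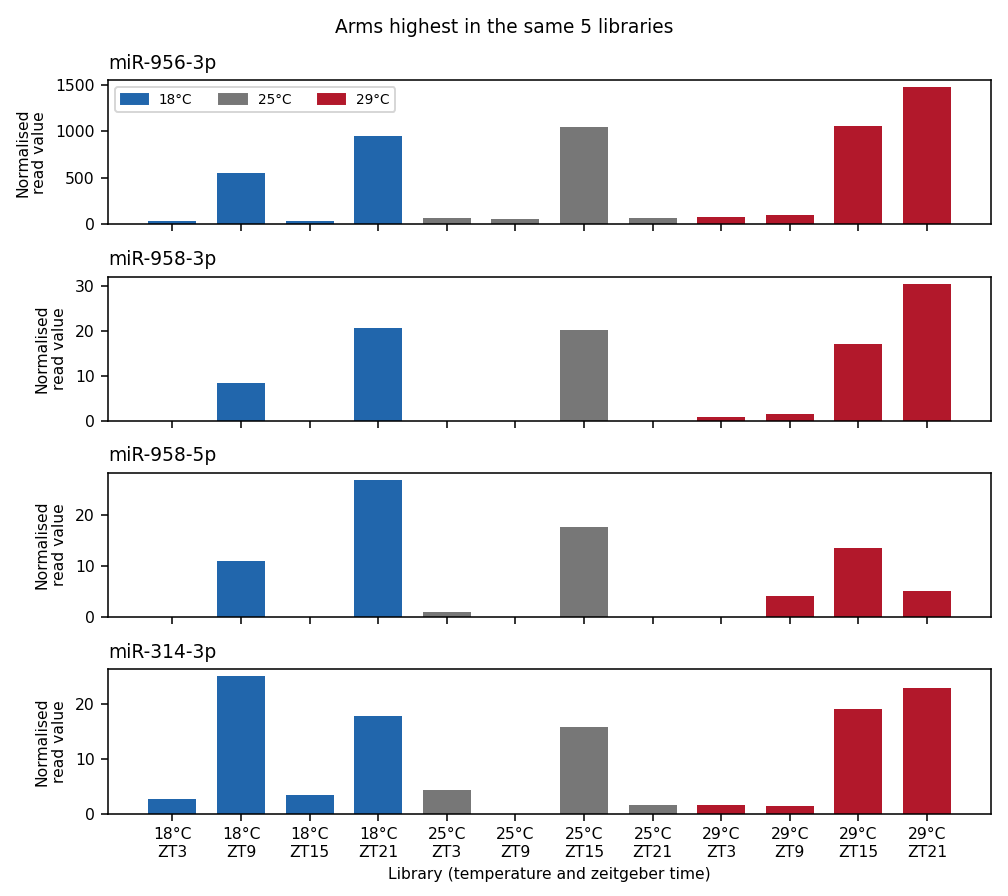
Normalised read value (vertical axes, from 0) of miR-956-3p, miR-958-3p, miR-958-5p and miR-314-3p in each of the 12 libraries, coloured by temperature. The 18°C ZT9, 18°C ZT21, 25°C ZT15, 29°C ZT15 and 29°C ZT21 libraries stand above the other 7 for miR-956-3p, miR-958-3p and miR-314-3p, and for miR-956-3p these are at or below 100.

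The scarce members close the list. The arms of mir-968 and mir-1002, from the same noncoding exon, were near the floor: miR-1002-3p had 0 to 12 reads per library, miR-968-3p had 0 to 4, miR-968-5p had 0 to 2 and miR-1002-5p had 0 or 1. At this depth no difference between temperatures could be seen in them. The 3p arm of mir-966 had 0 to 5 reads, beside 10 to 53 for its 5p arm, and the 3p arm of mir-955 had 0 to 12 reads beside 26 to 195. In mir-971, in an intron of rsh, miR-971-3p had 7 to 78 reads and miR-971-5p had 1 to 17, and neither passed in any comparison. The arms of mir-986, in Cyp4e2, had means of 42.9 (5p) and 38.8 (3p) in normalised reads and did not pass either.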

How the data were processed

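Small RNAs of AGO1 immunoprecipitates from fly heads were read with a NEBNext small RNA kit, and the authors assigned reads to mature miRNAs of miRBase with miRExpress. The version of miRExpress, the trimming and the length limits are not given in the sources used here. The deposited values are a signal: in each library all of the 4896 values were whole reads (within 0.01) divided by 1 size factor, so reads were recovered. Of 408 rows, 5 repeats were left out.

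Values were tested as log2(value + 1) with limma 3.58.1 (trend and robust options, R 4.3.3) on all miRNAs passing edgeR's filterByExpr, with Benjamini-Hochberg adjustment. Called members had an adjusted p under 0.05 with a log2 fold change over 1 in size, and counts at the adjusted p alone are given beside this. The test on recovered reads (edgeR 4.0.16, quasi-likelihood) put 95, 51 and 28 of 244 miRNAs under 0.05 for 18°C against 29°C, 18°C against 25°C and 29°C against 25°C, and limma 97, 48 and 29. DESeq2 1.42.0 was an alternative. Arms are given in every library where an adjusted p or an arm ratio passed or where they were among the 5 most abundant; the arms of mir-956, mir-958 and mir-955 were added after their values were seen, and miR-970-5p is given by its ranges. The code of the fit was also run on simulated reads, drawn with the same spread for all miRNAs and no effect of time point. That run does not show how well the fit suits these data. Deviations from the temperature means correlated positively between libraries of the same time point in all 4 pairs of 25°C and 29°C (0.226 to 0.445). The correlation was negative in all 4 pairs of 18°C and 25°C (-0.465 to -0.197). For 18°C and 29°C it ran from -0.289 to 0.0627. Time points were therefore taken to pair 25°C with 29°C only. The main fits had no block for time point, and fits with that block are given as alternatives. The labels do not say whether libraries at a temperature came from separate cultures, so p-values measure the spread between them, time of day included. The members and lists were chosen with earlier results of these data known. Positions come from the Ensembl annotation of BDGP6.54 and were not in the table.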

Additional observations from a re-analysis of the deposited data

Results flagged for a closer look

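In each group of 4 libraries, values were searched for 1 library far from the other 3, over 75 groups of named members' values and arm ratios. This found 9, where about 3.75 would be expected at 5% of the groups. The 2 counts cannot be compared directly. The groups include miR-956-3p, miR-958-3p and miR-958-5p, which were chosen after their values were seen. An arm and the ratio of its hairpin are also not independent. For miR-956-3p the 25°C ZT15 library stood at 1043 with the others between 60.2 and 73.5, and the same library stood apart for miR-958-3p (20.3, the others at 0) and miR-958-5p (17.7, the others at most 1.08). It also had a log2 arm ratio of -6.15 in mir-981, where the others were between -6.85 and -6.74. In mir-967 the libraries were miR-967-3p at 29°C ZT9 (55.0, the others 43.3 to 43.5), miR-967-5p at 25°C ZT9 (35.7, the others 57.1 to 60.5), miR-967-5p at 29°C ZT3 (56.5, the others 42.3 to 44.4) and the log2 arm ratio at 18°C ZT3 (0.69, the others 1.54 to 1.68). The last was miR-981-3p at 29°C ZT3 with 6052, where the others were between 4849 and 4923.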

How the results depend on the processing

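Of 18 results for arms and arm ratios with an adjusted p under 0.05, 11 stayed under it with every alternative run, none reversed, and the others are given with their values in the report. Of 87 results over 0.05, 73 stayed over it. The count of members called for 18°C against 29°C was 1, with 0 at a minimum mean of 100 reads (which leaves miR-967-3p out), 6 at the adjusted p alone, and 1 to 2 without each library in turn. For 18°C against 25°C it was 0, with 5 at the adjusted p alone. For 29°C against 25°C it was 1, with 0 at a pseudocount of 10, 0 at a minimum mean of 100 reads and 2 at the adjusted p alone. Changed arm ratios for 18°C against 29°C numbered 3, and 2 to 5 without each library in turn. They numbered 5 without 29°C ZT15, where mir-965 (adjusted p = 0.0494) and mir-988 (0.0291) came in. For 18°C against 25°C they numbered 1, with 2 at a minimum mean of 50 reads, 2 with only the 8 libraries compared, and 0 to 2 without each library in turn. They were 0 without 18°C ZT9 or 25°C ZT3, and 2 without 25°C ZT15 or 29°C ZT21. For 29°C against 25°C they numbered 1, and 1 to 2 without each library in turn, where mir-986 came in without 25°C ZT3 (0.0482) and mir-988 without 29°C ZT15 (0.0262). A minimum mean of 50 reads for each arm left mir-967 out of the test. In that setting mir-988 came in for 18°C against 29°C (0.0466) and for 29°C against 25°C (0.0417). The counts of 3 and 1 thus stayed the same with other hairpins. Time of day gave 0 members, and 0 to 2 without each library in turn, the 2 without 18°C ZT21. The causes of the other shifts were not tested. A replicate block on time point over all 12 libraries gave 4 changed arm ratios for 18°C against 29°C in place of 3 and 2 for 29°C against 25°C in place of 1, with mir-988 added in each (adjusted p = 0.0486 and 0.0405). With the block in only the 8 libraries at 25°C and 29°C, an alternative chosen after seeing the data, the second count was 1 and miR-987-5p came under 0.05 (0.0366). The blocks changed no other call. Shares over all miRNAs or hairpins with the blocks are not given here, so these counts show only how the members' calls moved. Depth limits the arms with a mean under 10 reads, and most of all in the 29°C ZT21 library.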
